A study of Mus musculus with 12 samples.

Results

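Zinc finger proteins named Zfp in the mouse are mostly proteins of the C2H2 kind, in which a pair of cysteines and a pair of histidines hold a zinc ion and each finger reads a few bases of DNA. Many of them also carry a KRAB box, which binds TRIM28 (KAP1) and through it the histone methyltransferase SETDB1, and these are best known for silencing retroelements. A smaller group of the CCCH kind, Zfp36 and its relatives, binds AU-rich elements in the tails of mRNAs and brings about their decay. The 168 genes described here are the protein-coding genes named Zfp and a number whose raw count averaged at least 300 over the 12 libraries of the study, so they were selected on their level in these same libraries. They were taken from 384 protein-coding Zfp genes among 29030 genes in the deposited tables, and the other 216 lay below that count.

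Primary fibroblasts from the hearts of C57BL/6 mice were cultured with 10% serum and received 6 µM MCB-613-10-1, described in the submitters' design text as a derivative of MCB-613, a stimulator of steroid receptor coactivators, or the ethanol vehicle alone. RNA was sequenced after 4 h and after 24 h, with 3 libraries for each of the groups MCB-613-10-1 4 h, vehicle 4 h, MCB-613-10-1 24 h and vehicle 24 h. All 4 groups share strain, cell type and culture medium, and the design text gives the aim as finding the signals by which the compound acts on fibrosis. The labels do not say that libraries of a group came from separate cultures or mice, so the p-values measure the spread between these libraries, which may be technical.

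Total counts ran between 25016754 and 34877090 a library. Markers of fibroblasts were present in every group, with all 10 listed genes at a mean of at least 1 FPKM, and cardiomyocyte markers were close to 0 apart from Tnnt2. At 24 h the summed fibroblast markers stood at 1033 to 1062 FPKM in treated libraries, against 2294 to 2692 FPKM in vehicle libraries, with Vim and Col1a1 as the main contributors. Of the 10 genes 8 were lower, Ddr2 was higher with a log2 fold change of 0.62, and Dcn did not pass. Macrophage and leukocyte markers summed to 89.2 to 102.9 FPKM in treated libraries at 24 h, against 211 to 243 FPKM in vehicle libraries, with Lyz2 as the main contributor. Of these 8 genes 6 were lower and 2 higher, namely Cd14 with a log2 fold change of 1.09 and Csf1r with 0.22. The part of these marker changes in the results for the Zfp genes was not tested. In bulk RNA, fewer cells of a type and less RNA per cell cannot be told apart. The libraries of the 2 times were deposited in separate tables, so time and any other difference between those tables cannot be told apart either.

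The mean raw count that chose the members ran from 315 to 9158, with a median of 766. Just inside the limit were Zfp780b with 315, Zfp141 with 318 and Zfp81 with 324 counts, and just outside it were Zfp692 with 278, Zfp944 with 287 and Zfp626 with 290.0 counts. In 34 members the mean fell below 300 in at least 1 of the 4 groups, down to 149. Choosing on the vehicle libraries alone would have given 170 genes, of which 164 are members. All 168 members passed the filter on low counts and were tested in each comparison.

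Per length, the members were mostly modest transcripts: their mean level ranged from 0.721 to 87.2 FPKM, with a median of 5.13 FPKM, and 30 of them reached 10 FPKM. Zfp36l2, Zfp36, Zfp207, Zfp703 and Zfp36l1 had the highest levels per length. The authors' annotation placed 139 members in the C2H2 family. Chromosome 7 held 38 members, chromosome 17 held 17, and chromosomes 6 and 8 held 11 each. A search of the reference coding sequences found a median of 9 C2H2 fingers per protein and at most 36, in Zfp142. A KRAB pattern was found in 56 members and not in 111, and Zfp469 could not be matched. The patterns find the typical form of the box, so a protein without a match may still carry a divergent one.

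The first finger of 6 members is shown because these genes had among the largest responses or form the CCCH family. The letters are coding bases from the GRCm38 transcripts, with the codons of the zinc-holding cysteines and histidines in capitals. The C2H2 fingers come from Zfp945 on chromosome 17, Zfp874b on chromosome 13 and Zfp651 on chromosome 9, and the CCCH fingers from Zfp36 on chromosome 7, Zfp36l1 on chromosome 12 and Zfp36l2 on chromosome 17.
Zfp945: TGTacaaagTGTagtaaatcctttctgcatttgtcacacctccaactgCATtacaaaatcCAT
Zfp874b: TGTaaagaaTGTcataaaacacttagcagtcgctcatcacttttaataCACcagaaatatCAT
Zfp651: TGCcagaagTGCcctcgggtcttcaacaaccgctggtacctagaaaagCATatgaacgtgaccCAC
Zfp36: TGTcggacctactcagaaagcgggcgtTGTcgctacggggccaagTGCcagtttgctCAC
Zfp36l1: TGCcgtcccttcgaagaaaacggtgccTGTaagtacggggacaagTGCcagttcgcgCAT
Zfp36l2: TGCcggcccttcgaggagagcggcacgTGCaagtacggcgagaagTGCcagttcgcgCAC
The 60 bases of the CCCH finger were 81.7% identical between Zfp36l1 and Zfp36l2, 70.0% between Zfp36 and Zfp36l1, and 66.7% between Zfp36 and Zfp36l2.

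MCB-613-10-1 raised 9 and lowered 6 of the 168 members in edgeR's quasi-likelihood test at an adjusted p under 0.05, and 153 did not pass. Over all genes tested, 3.45% were called higher and 3.71% lower at 4 h, or 7.16% in either direction, beside 5.36% and 3.57% of the members. The counts moved with the fit, and so did the share of all genes called. DESeq2 called 15 members higher and 9 lower, beside 4.92% and 5.58% of all genes. A fit without the filter called 14 and 12, beside 2.69% and 3.24%. A fit on all 12 libraries called 22 and 15, beside 6.48% and 6.97%. A fit with the replicate number as a block called 22 and 16, beside 6.00% and 6.74%. The median log2 fold change was -0.01 for the members and -0.01 for all genes. Libraries of the 2 groups did not overlap in 33 members that were higher and 22 that were lower in treated cells, beside 14.5% and 15.2% of all genes. The authors' deposited table called 15 members higher and 9 lower at this time. The counts at 4 h also moved when single libraries were left out, and so did the share of all genes called. Without treated library 2 or 3, 5 members were called higher, beside 1.5% and 1.41% of all genes. Without vehicle library 1, 15 were called higher, beside 5.87% of all genes. Leaving out any 1 treated library left 3 lower, beside 1.41% to 2.01% of all genes.

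Zfp623, a C2H2 gene with 12 fingers, had the largest rise at 4 h. Its level was 39.3, 38.3 and 40.4 CPM (counts scaled to a common library size within the 6 libraries of a time) in treated libraries, against 16.1, 18.9 and 18.6 CPM in vehicle libraries. The log2 fold change was 1.14 ± 0.10 (SE, adjusted p = 4.7e-05), and at 24 h it was smaller, at 0.66 ± 0.09. Zfp874b, a KRAB gene on chromosome 13, had 15.5, 13.9 and 13.3 CPM in treated libraries at 4 h, against 8.56, 6.53 and 6.04 CPM in vehicle libraries. Its groups did not overlap, and the log2 fold change was 1.01 (adjusted p = 0.00222). Zfp703, a corepressor that works with Groucho/TLE proteins, rose by 0.71 on the log2 scale at 4 h and by 0.66 at 24 h. Zfp142 rose by 0.57 at 4 h, Zfp668 by 0.51, Zfp516 by 0.49, Zfp219 by 0.48 and Zfp180 by 0.36. Zfp668 and the member Zfp646, which rose by 0.45, lie on opposite strands and overlap. Whether the library kit marked strand is not stated, so their reads may not be separable. The same holds for Zfp219, which overlaps the more abundant Arhgef40 on the other strand, and for Zfp335, which overlaps Pcif1. The rises of Zfp180, Zfp219 and Zfp668 at 4 h did not pass once single libraries were left out, with adjusted p up to 0.18, 0.143 and 0.163.

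Zfp386, a KRAB gene, had the largest fall at 4 h, and like Zfp874b it averaged below 300 counts in at least 1 group. It had 8.61, 7.27 and 6.64 CPM in treated libraries, against 14.6, 13.4 and 12.1 CPM in vehicle libraries, a log2 change of -0.83 ± 0.14 (adjusted p = 0.00446) with no overlap. Zfp512b fell by 0.70 and Zfp36l1 by 0.63. Zfp955a fell by 0.53, but its coding sequence is 98.2% identical to that of Zfp955b, so the split of reads between these copies is uncertain. Zfp62 fell by 0.46 and Zfp809 by 0.40. The falls of Zfp955a, Zfp62 and Zfp809 did not pass without any 1 of the treated libraries, with adjusted p up to 0.154, 0.189 and 0.176. Zfp874b has a copy as well, Zfp874a, at 95.9% identity.

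At 24 h most members differed. The compound raised 88 members and lowered 47, and 33 did not pass. Of all genes tested, 36.7% were called higher and 38.0% lower, or 74.7% in either direction, against 52.4% and 28.0% of the members. The median log2 fold change of the members was 0.20, beside -0.02 for all genes, and the range was -1.87 to 3.0. A rise of at least 1 log2 unit was called in 21 members and a fall of that size in 12, beside 13.6% and 18.0% of all genes. The 34 members whose mean fell below the count limit in some group include 10 of the 88 and 20 of the 47. Zfp945, Zfp874b, Zfp758 and Zfp954 are among those that rose, and Zfp651, Zfp523 and Zfp362 among those that fell. Such members met the limit through the groups in which they were higher, so their differences are partly set by the choice of members, and the totals carry no evidence about Zfp genes at large. The 134 members with at least 300 counts in every group had 78 higher and 27 lower, with a range of -1.53 to 2.87. Among these 134, a rise of at least 1 was called in 15 and a fall of that size in 6. Many changes were small, and 52 called members moved by less than 0.5. Libraries did not overlap in 91 members that were higher and 51 that were lower, beside 38.1% and 39.4% of all genes. The authors' deposited table called 82 members higher and 44 lower.

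The split of the calls at 24 h depended on scaling. With counts scaled by library totals, the log2 fold changes of all genes shifted by a median of -0.19, the members' median was 0.00 against -0.21 for all genes, and 63 members were called higher and 62 lower. The share of all genes called with that scaling is not given here, so this split is not read against other genes. Without any scaling beyond the total, the members took 0.622% to 0.642% of the counts in treated libraries at 24 h, against 0.573% to 0.580% in vehicle libraries. Ribosomal RNA made up 2.27% to 3.90% of the treated libraries at 24 h and 2.92% to 4.09% of the vehicle libraries. Its part in these results was not tested.

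**Figure D1:**
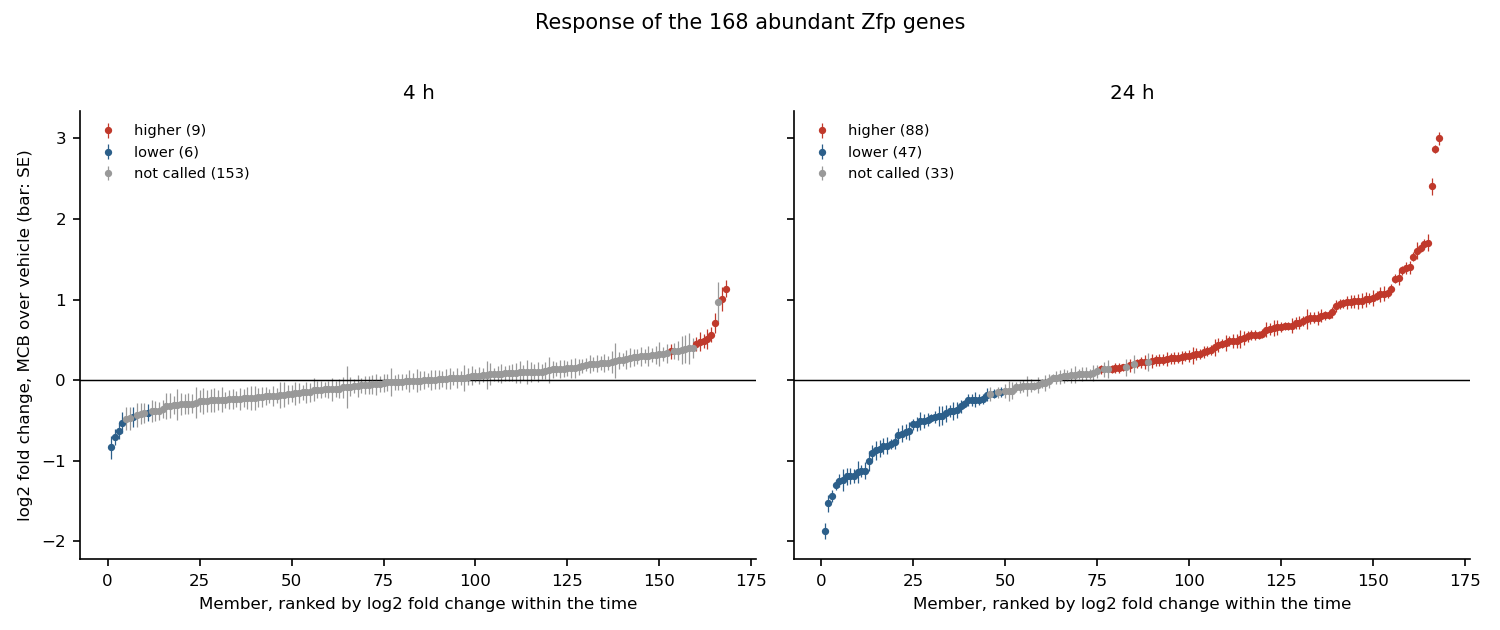
Log2 fold change of each of the 168 abundant Zfp genes, MCB-613-10-1 over vehicle, at 4 h and at 24 h, ranked within each time; bars are standard errors and colours mark genes called higher, lower or not called by edgeR. At 4 h 153 members lie in the grey part, and at 24 h 88 are called higher and 47 lower, with 3 genes standing above the rest. With scaling by library totals the 24 h calls split into 63 higher and 62 lower, where the median log2 fold change of all genes was -0.21.

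Zfp945, a KRAB gene with 18 fingers at chr17:23065671-23086108 on the minus strand (GRCm39), rose most at 24 h. Its level was 65.1, 63.5 and 68.4 CPM in treated libraries, against 8.15, 9.40 and 7.10 CPM in vehicle libraries. Every treated library was above every vehicle library, with a log2 fold change of 3.0 ± 0.09 (SE, adjusted p = 2.08e-16), or 8.0-fold. Zfp874b, with 10 fingers, had 25.3, 24.7 and 23.5 CPM in treated libraries at 24 h, against 5.14, 4.12 and 4.53 CPM in vehicle libraries. This was a log2 fold change of 2.41 ± 0.11 (adjusted p = 1.09e-13). Zfp758, a KRAB gene on chromosome 17, had 22.1, 20.1 and 21.0 CPM in treated libraries and 6.87, 5.93 and 6.50 CPM in vehicle libraries, a log2 fold change of 1.71 ± 0.10. Zfp180 rose by 1.69, Zfp142 by 1.64, Zfp954 by 1.61 and Zfp655 by 1.53 on the log2 scale, each with non-overlapping libraries. For Zfp142 the overlapping gene Plcd4 lies on the other strand.

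Zfp651 fell most at 24 h. This gene with 7 fingers lies at chr9:121588396-121600808 on the plus strand (GRCm39). Its level was 8.02, 7.69 and 6.27 CPM in treated libraries, against 26.8, 26.2 and 27.6 CPM in vehicle libraries. The log2 fold change was -1.87 ± 0.10 (adjusted p = 1.89e-12). Zfp512b had 14.8, 12.1 and 10.2 CPM in treated libraries and 36.2, 34.5 and 36.4 CPM in vehicle libraries, a log2 change of -1.53. Zfp512b overlaps the abundant gene Prpf6 on the other strand and Uckl1 on its own strand, which makes its counts uncertain. Zfp266, a KRAB gene reported as a barrier to turning mouse fibroblasts into cardiomyocyte-like cells, had 17.2, 16.5 and 15.01 CPM in treated libraries and 42.9, 44.2 and 45.2 CPM in vehicle libraries. Its log2 fold change was -1.44 ± 0.07 (adjusted p = 8.45e-13), with every treated library below every vehicle library. Zfp521, a co-regulator that holds back fat cell differentiation, stood at 12.1, 12.2 and 12.1 CPM in treated libraries, against 28.5, 26.9 and 31.1 CPM in vehicle libraries. Zfp469, whose human counterpart is mutated in brittle cornea syndrome, had 32.8, 28.4 and 22.6 CPM in treated libraries and 59.7, 65.9 and 72.8 CPM in vehicle libraries. Zfp523 and Zfp362 each fell by 1.19 on the log2 scale. Of the 3 members nearest the count limit, Zfp141 fell by 0.38, Zfp81 fell by 0.45 and Zfp780b rose by 0.31, which with library totals was 0.11 and no longer called (adjusted p = 0.346), and the call was also lost without vehicle library 3 (adjusted p = 0.0688) and with limma on FPKM (adjusted p = 0.0557).

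**Figure D2:**
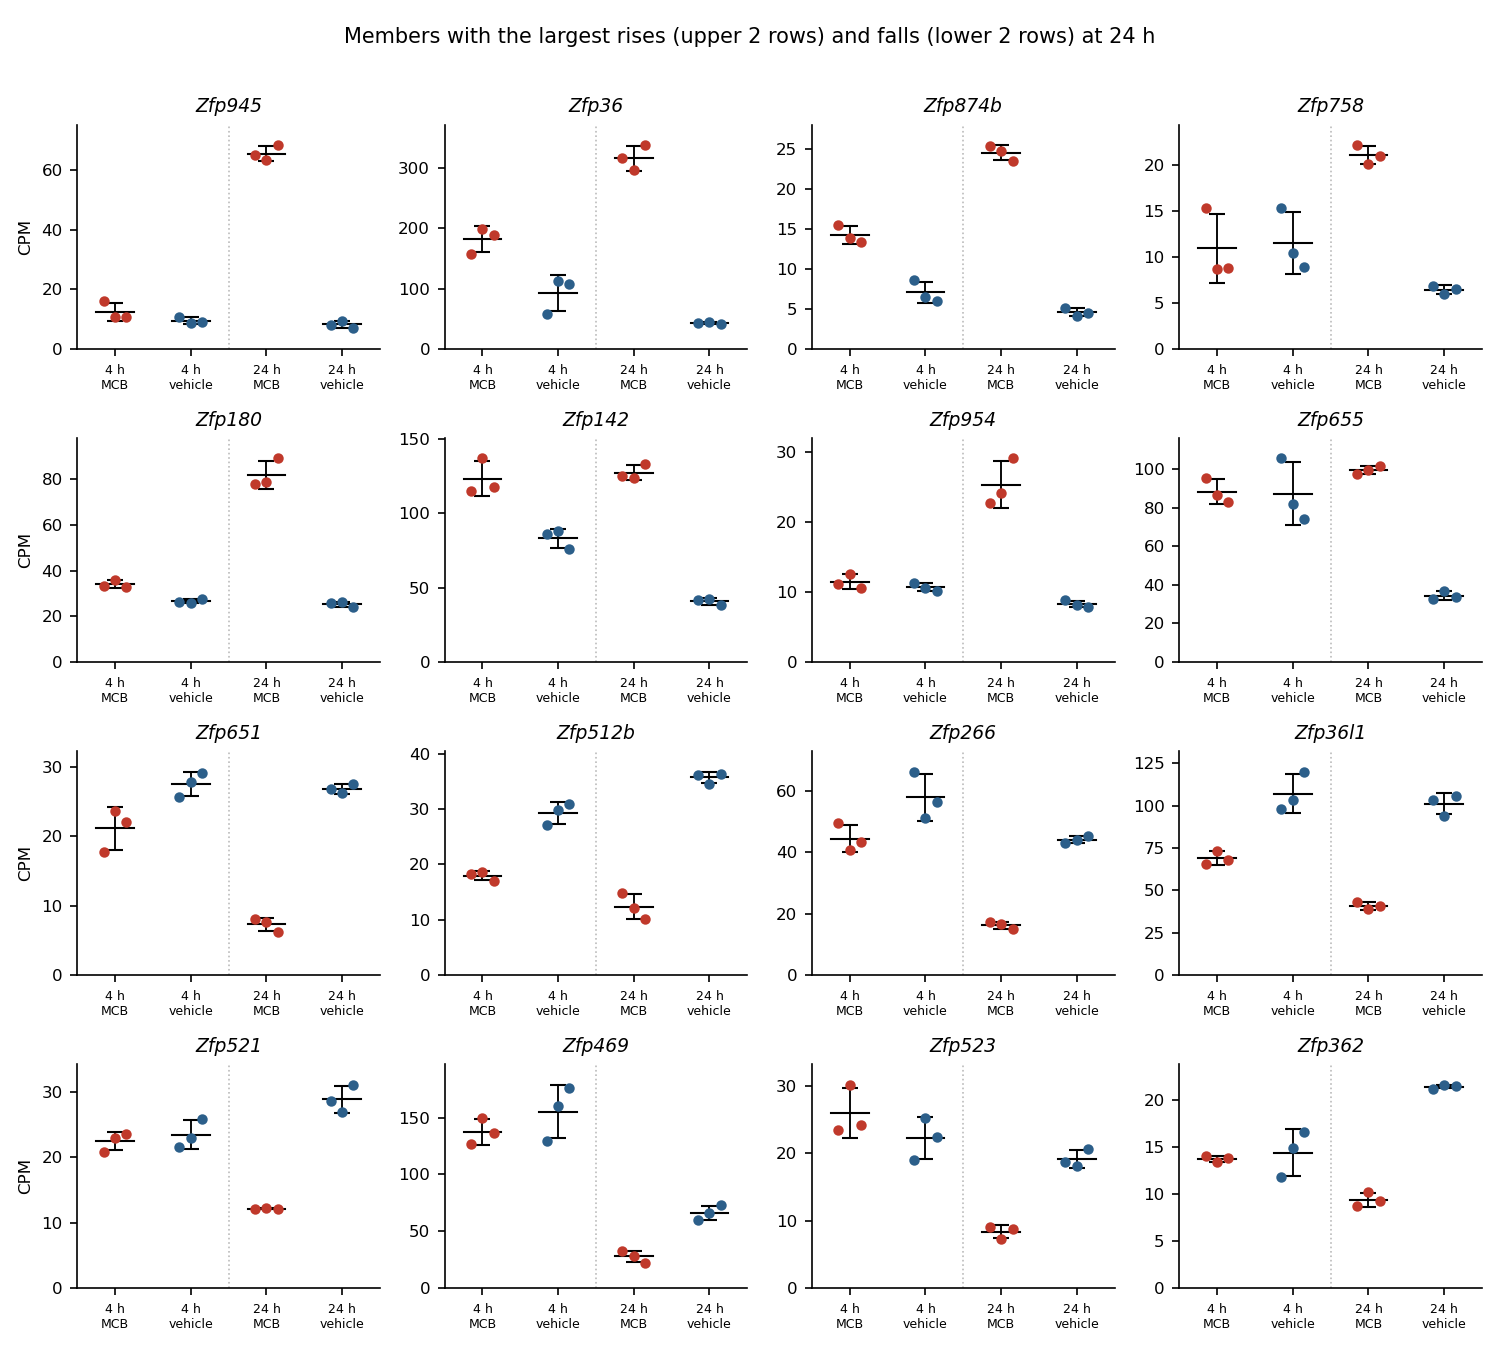
CPM in each library for the 8 members with the largest rise (upper rows) and the 8 with the largest fall (lower rows) at 24 h; red points are MCB-613-10-1 (MCB), blue points vehicle, horizontal lines group means and bars SD (n = 3), with each time scaled on its own. In all 16 genes the treated and vehicle libraries of 24 h do not overlap, and Zfp945 stands at 63.5 to 68.4 CPM in treated libraries, against 7.10 to 9.40 CPM in vehicle libraries.

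The 3 CCCH members moved in different directions. Zfp36, also called tristetraprolin, had 316, 296 and 337 CPM in treated libraries at 24 h, against 42.7, 45.0 and 42.1 CPM in vehicle libraries. This was a log2 fold change of 2.87 ± 0.06 (adjusted p = 8.4e-19), or 7.31-fold, and its treated libraries averaged 87.9 FPKM. At 4 h Zfp36 had 157, 198 and 188 CPM in treated libraries and 58.5, 113 and 108 CPM in vehicle libraries. Those groups did not overlap either, but vehicle library 1 lay far below the other two, and the log2 fold change of 0.97 ± 0.25 did not pass (adjusted p = 0.069). Zfp36l1 fell at both times. It had 65.6, 73.5 and 68.1 CPM in treated libraries at 4 h, against 98.2, 103 and 120 CPM in vehicle libraries, a log2 change of -0.63 ± 0.10 (adjusted p = 0.00237). At 24 h it had 43.3, 38.8 and 40.9 CPM in treated libraries and 103, 94.1 and 106 CPM in vehicle libraries, a log2 change of -1.30 ± 0.06 (adjusted p = 2.18e-13).

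Zfp36l2 had 437, 538 and 482 CPM in treated libraries at 4 h and 331, 435 and 405 CPM in vehicle libraries, which did not pass (log2 fold change 0.32, adjusted p = 0.118). At 24 h it had 193, 201 and 168 CPM in treated libraries and 214, 213 and 206 CPM in vehicle libraries. The groups did not overlap and the log2 change was -0.17 (adjusted p = 0.0126), but without treated library 3 the call was lost (adjusted p = 0.0828). It was also lost in the edgeR fit on all 12 libraries (adjusted p = 0.139). At 24 h, as levels per length, Zfp36 stood above Zfp36l1 in treated cells, at 87.9 against 13.2 FPKM, and below it in vehicle cells, at 12.1 against 32.8 FPKM.

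**Figure D3:**
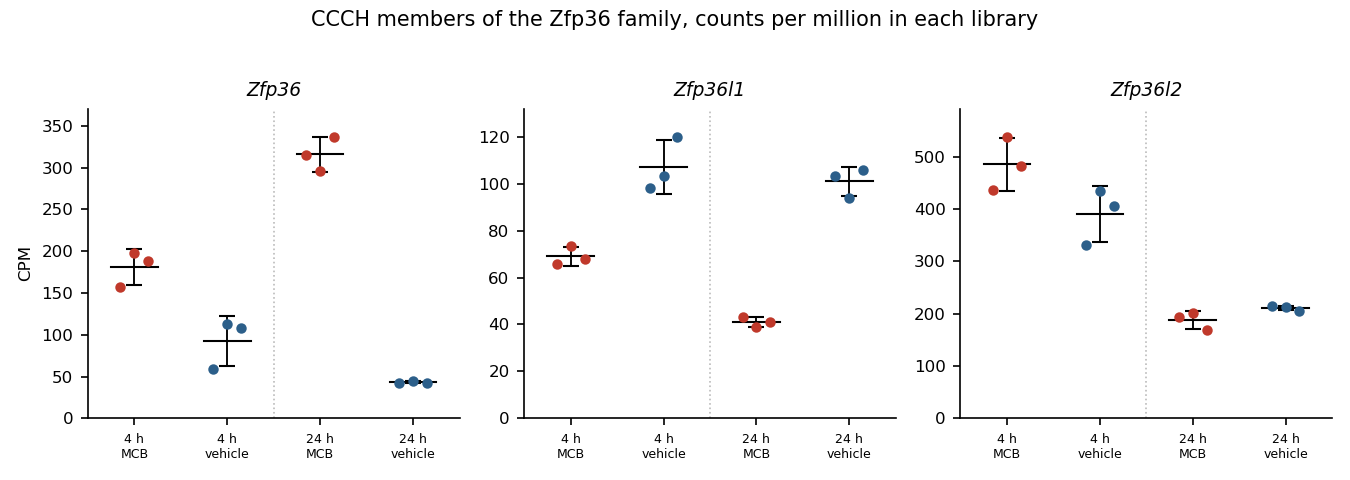
CPM of Zfp36, Zfp36l1 and Zfp36l2 in each of the 12 libraries; red points are MCB-613-10-1 (MCB), blue points vehicle, lines group means and bars SD (n = 3). Zfp36 is at 296 to 337 CPM in treated libraries at 24 h, against 42.1 to 45.0 CPM in vehicle libraries, whereas Zfp36l1 is lower in treated libraries at both times.

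Among 11 members with roles in RNA, ribosomes and translation, 5 rose, 4 fell and 2 did not pass at 24 h. Of all genes 36.7% were called higher and 38.0% lower at that time. None of the 11 was called at 4 h, beside 7.16% of all genes. Zfp622, the counterpart of a yeast factor that matures the large ribosomal subunit in the cytoplasm, had 167, 170 and 186 CPM in treated libraries, against 98.4, 102 and 96.8 CPM in vehicle libraries (log2 fold change 0.81 ± 0.05). Zfp830, a splicing-associated protein, rose by 0.68. Zfp598, which ubiquitinates ribosomes at collisions, rose by 0.21, Zfp326, a subunit of a complex that links splicing to elongation, by 0.25, and Zfp106 by 0.16. The call was lost with library totals for Zfp326 and Zfp598 (adjusted p = 0.444 and 0.773), and Zfp106 then had a log2 change of -0.04. Zfp318, which controls the choice of immunoglobulin transcripts in B cells, had the largest fall of this list. This gene averaged below the count limit in some group, so its fall is partly set by the choice of members. It had 10.8, 10.5 and 9.53 CPM in treated libraries and 22.6, 23.4 and 24.3 CPM in vehicle libraries (log2 fold change -1.19 ± 0.09). Zfp638 fell by 0.47, Zfp385a by 0.46 and Zfp706 by 0.29.

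Zfp207, a kinetochore protein and the third highest member per length, was at 194, 197 and 199.8 CPM in treated libraries at 24 h and at 197, 194 and 187 CPM in vehicle libraries. Its libraries overlapped, and the log2 difference of 0.03 ± 0.04 did not pass. All 3 members with ligase roles were called higher at 24 h, beside 36.7% of all genes and 52.4% of the members. They include Zfp598 of the list above, whose call was lost with library totals. Zfp451, a SUMO ligase, had 108, 110 and 119 CPM in treated libraries, against 53.7, 58.1 and 61.7 CPM in vehicle libraries (log2 fold change 0.96 ± 0.06). Zfp91, a ubiquitin ligase of the NF-kappa-B pathway, rose by 0.14 (adjusted p = 0.0143). That call was lost without treated library 2 or vehicle library 1, without the filter and in the fit on all 12 libraries. With library totals the log2 change was -0.05.

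Of 4 members known for silencing of retroelements, imprints or repeats, 2 rose, 1 fell and 1 did not pass at 24 h. Beside them, 36.7% of all genes were called higher and 38.0% lower. Zfp568, which represses a placental Igf2 promoter in mouse embryos, had 92.2, 97.9 and 89.6 CPM in treated libraries, against 40.5, 47.2 and 39.9 CPM in vehicle libraries (log2 fold change 1.13 ± 0.06, adjusted p = 8.95e-12). Zfp445, which helps to maintain imprints, rose by 0.67. Zfp809, which recognises the primer binding site of mouse retroviruses, went the other way, with 37.4, 35.8 and 34.1 CPM in treated libraries and 62.3, 63.2 and 60.1 CPM in vehicle libraries (log2 fold change -0.79 ± 0.06, adjusted p = 4.66e-10).

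Among 22 promoter-binding and developmental regulators, 15 rose, 4 fell and 3 did not pass at 24 h, and the median log2 fold change was 0.36. Of all genes 36.7% were called higher and 38.0% lower, and of the members 52.4% and 28.0%. Whether this list differed from the other members was not tested. Zfp410, which in mouse and human cells activates Chd4, had 58.9, 61.7 and 65.6 CPM in treated libraries and 29.8, 28.3 and 30.0 CPM in vehicle libraries (log2 fold change 1.08 ± 0.06, adjusted p = 8.71e-12). Chd4 itself, a helicase of the NuRD complex, averaged 429 ± 11.5 CPM in treated libraries at 24 h and 351 ± 6.19 CPM in vehicle libraries (SD, n = 3 each), a log2 rise of 0.29. Zfp384, a factor that binds promoters of matrix genes, rose by 0.81, and Zfp516, an activator of Ucp1 in brown fat, by 0.73. Zfp503, of the same corepressor family as Zfp703, rose by 0.38, Zfp281 by 0.37, Zfp143, an activator of small nuclear RNA genes, by 0.35, and Zfp219 by 0.33. Zfp263 rose by 0.63, Zfp292 by 0.56, Zfp644, a partner of the G9a methyltransferase complex, by 0.54, Zfp277 by 0.44, Zfp24 by 0.27 and Zfp335 by 0.24. With library totals the calls of Zfp143, Zfp219, Zfp24 and Zfp335 were lost. Besides Zfp521, the falls were -0.24 for Zfp462, -0.18 for Zfp217, a corepressor and breast cancer gene, and -0.15 for Zfp746, a repressor of PGC-1alpha. The calls of Zfp217 and Zfp746 were lost when single libraries were left out, with adjusted p up to 0.212 and 0.21. With every library kept, both were lost with DESeq2 (adjusted p = 0.135 and 0.134) and with edgeR on its size factors. They were lost as well with limma on FPKM and in the fit on all 12 libraries, and Zfp746 also with the replicate block.

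The 56 members with a KRAB pattern had a median log2 fold change of 0.32 at 24 h, with 32 higher, 10 lower and 14 that did not pass. The 111 members without one had a median of 0.14, with 56 higher, 36 lower and 19 that did not pass. Among all genes 36.7% were called higher and 38.0% lower. The difference between these medians was not tested. Zfp945, Zfp874b, Zfp758, Zfp954 and other KRAB members averaged below the count limit in some group, as did members without the pattern. The counts of both sets are therefore partly set by the choice of members. Zfp genes below the count limit had 42 higher and 53 lower among the 177 tested, with a median of -0.09. Other genes of the authors' C2H2 family had 65 higher and 54 lower among 161 tested, with a median of 0.20. By chromosome, 19 of the 38 members on chromosome 7 rose and 7 fell, and 9 of the 17 on chromosome 17 rose and 5 fell. On the 7 other chromosomes with 9 to 11 members, the members that rose numbered 2 to 7 and those that fell 1 to 5. No difference between chromosomes was tested. Members sharing a cluster can share near-identical sequence, so their counts are not independent.

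A list of 31 genes held the silencing machinery that KRAB proteins recruit together with wider heterochromatin and DNA methylation factors. These genes moved in both directions at 24 h: 11 rose, 17 fell and 3 did not pass, beside 36.7% higher and 38.0% lower among all genes. Their median log2 fold change was -0.25. At 4 h, Cbx5, a heterochromatin protein, was the single one of the 31 called, at -0.41 (adjusted p = 0.0147), beside 7.16% of all genes. Trim28, the corepressor itself, averaged 181 ± 5.86 CPM in treated libraries at 24 h, against 315 ± 7.42 CPM in vehicle libraries (SD, n = 3 each), a log2 change of -0.80. Setdb1 averaged 28.5 ± 3.46 CPM in treated libraries and 46.1 ± 0.356 CPM in vehicle libraries, a log2 change of -0.69. The largest falls of the whole list were those of Uhrf1 with -3.31, Suv39h1 with -2.22, Cbx3 with -2.01, Cbx5 with -1.95 and Dnmt1 with -1.83. Uhrf1 and Dnmt1 copy DNA methylation at replication, and Suv39h1 methylates histone H3 in heterochromatin. Gatad2a and Gatad2b, subunits of the NuRD complex, rose by 0.76 and 0.69, and Atf7ip, a partner of SETDB1, by 0.35.

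The response differed between the times in 106 members, by the interaction term fitted over all 12 libraries. In 71 the response was higher at 24 h than at 4 h and in 35 it was lower, beside 26.7% and 27.1% of all genes, or 53.8% in either direction. Members that averaged below 300 counts in some group made up 12 of the 71 and 14 of the 35. Zfp945, Zfp758, Zfp651 and Zfp523 are among them, so their differences are partly set by the choice of members. The median difference was 0.19 on the log2 scale for the members and 0.00 for all genes. Zfp945 had the largest difference, at 2.62 ± 0.21 (SE, adjusted p = 1.49e-08), since at 4 h its log2 fold change was 0.38. Zfp36 followed at 1.91 ± 0.30 and Zfp758 at 1.80 ± 0.31. On the other side were Zfp651 with -1.48 ± 0.16, Zfp523 with -1.41 ± 0.18 and Zfp521 with -1.18 ± 0.14. Zfp623 had a smaller response at 24 h, with a difference of -0.47 (adjusted p = 0.00789), and the difference for Zfp703 was -0.05 and did not pass. Members with a KRAB pattern had 34 higher and 5 lower differences with a median of 0.48. Those without had 37 higher and 29 lower with a median of 0.08. Both sets hold members that averaged below 300 counts in some group, such as Zfp945 and Zfp758 with the pattern and Zfp651 and Zfp523 without. These counts are thus partly set by the choice of members, and the difference between the sets was not tested.

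No member was called in opposite directions at the 2 times. Of the 9 members called higher at 4 h, 8 were called higher at 24 h, and of the 6 called lower, 5 were called lower. Among the 153 that did not pass at 4 h, 80 were called higher and 42 lower at 24 h.

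**Figure D4:**
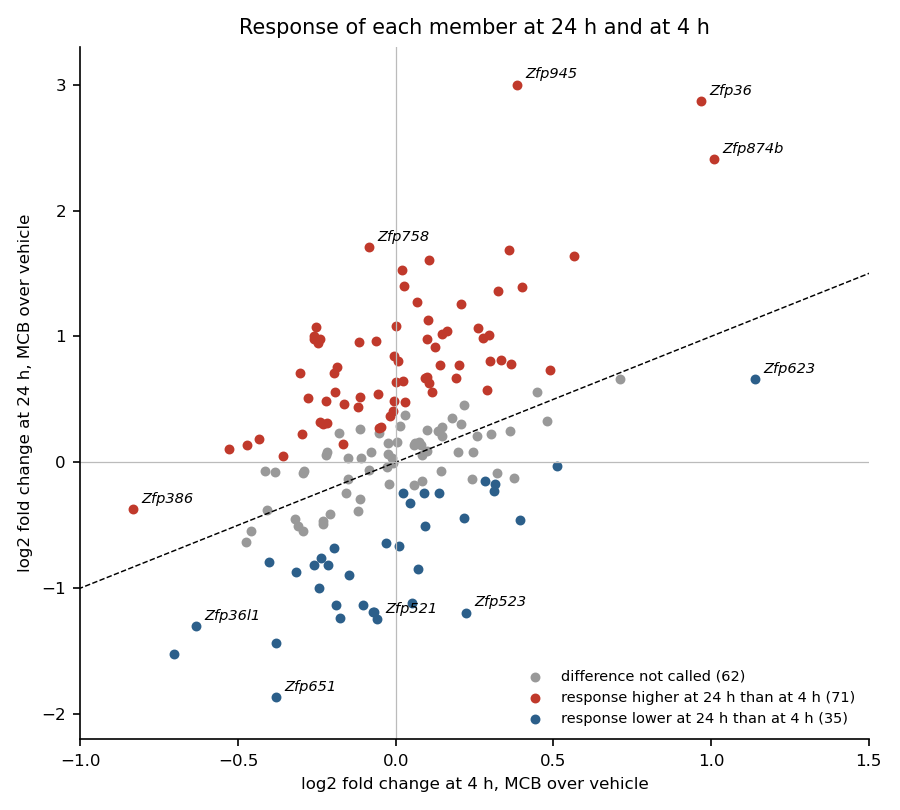
Log2 fold change of each of the 168 members, MCB-613-10-1 over vehicle, at 24 h (vertical) and at 4 h (horizontal); the dashed line marks equal responses, red and blue points have a called interaction term and grey points do not. Of the points, 71 are called above the line and 35 below it, and Zfp945 lies at 3.0 for 24 h and 0.38 for 4 h.

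In vehicle cells the members were mostly lower at 24 h than at 4 h: 12 were called higher, 101 lower and 55 did not pass, beside 27.4% and 27.0% of all genes, or 54.3% in either direction. Their median log2 difference between vehicle 24 h and vehicle 4 h was -0.31, against 0.01 for all genes. Other signs moved with this comparison: macrophage and leukocyte markers summed to 211 to 243 FPKM in vehicle libraries at 24 h, against 61.2 to 64.2 FPKM at 4 h, with all 8 genes called higher and Lyz2 higher by 2.03 on the log2 scale. Ribosomal RNA made up 2.92% to 4.09% of the vehicle libraries at 24 h, against 0.543% to 0.900% at 4 h. Their part in the result was not tested. The lowest values were those of Zfp703 with -1.44, Zfp37 with -1.37 and Zfp655 with -1.30, and the highest was that of Zfp365 with 0.84. Zfp37 and Zfp365 are named for these extremes and were chosen after their values were seen. This comparison, the response at 24 h and the interaction term share the 3 vehicle 24 h libraries, so their values are given side by side and no overlap between them is read. For Zfp655, vehicle libraries were at 32.7, 36.8 and 33.9 CPM at 24 h and at 105, 81.7 and 74.2 CPM at 4 h, while treated libraries were at 97.4, 99.6 and 102 CPM at 24 h and at 95.3, 86.7 and 83.0 CPM at 4 h. These CPM values were scaled within each time, so they are not on a common scale between the times. Zfp945 had a vehicle difference of -0.17 that did not pass.

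Summed over all members and scaled over the 12 libraries, the level was 6803 to 6893 CPM in treated libraries and 5397 to 5537 CPM in vehicle libraries at 24 h. At 4 h the sums were 7401 to 7637 CPM in treated libraries and 6993 to 7313 CPM in vehicle libraries. For the 56 members with a KRAB pattern, the sums were 1521 to 1575 CPM in treated libraries and 1110 to 1154 CPM in vehicle libraries at 24 h, and 1357 to 1494 CPM in treated libraries and 1381 to 1634 CPM in vehicle libraries at 4 h. In the KRAB sum, library 1 was the highest of its group at 4 h in both conditions. The 24 h groups did not overlap in either sum, and at 4 h the KRAB sums overlapped.

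**Figure D5:**
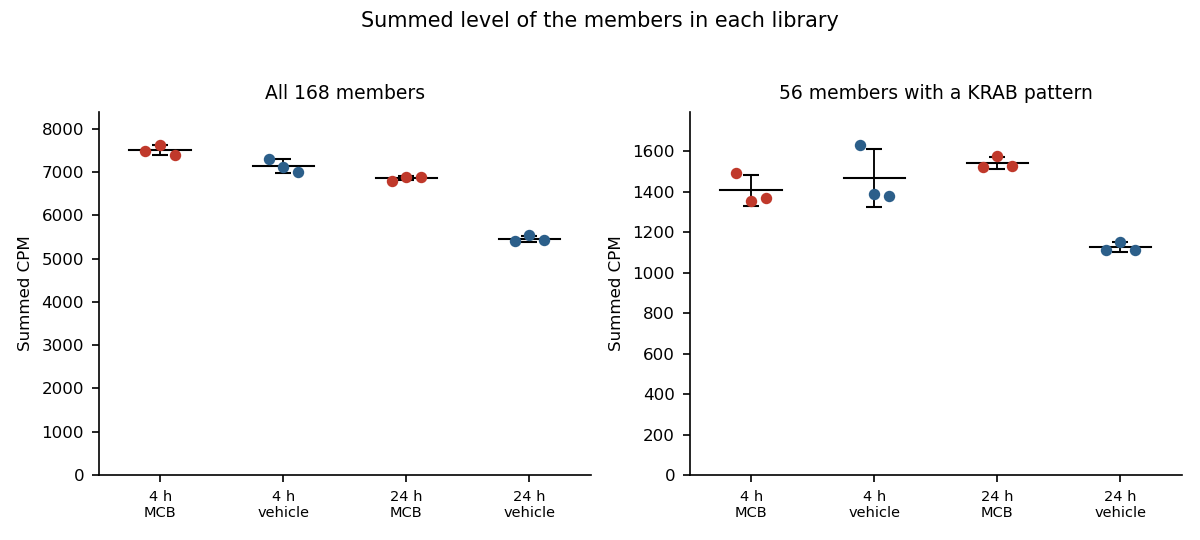
Summed CPM of all 168 members (left) and of the 56 with a KRAB pattern (right) in each library, scaled over the 12 libraries; red points are MCB-613-10-1 (MCB), blue points vehicle, lines group means and bars SD (n = 3). At 24 h the treated libraries lie at 6803 to 6893 CPM for all members, against 5397 to 5537 CPM in vehicle libraries.

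The promoters of the members were searched for the antioxidant response element that NRF2 binds, spelled TGACNNNGC, on both strands of the 250 bases before each start (RefSeq, GRCm38.p6). The motif was in 22 of 167 promoters of the 135 members that could be matched, or 13.2%, and in 10.2% of all 32851 promoters. The heat shock element that HSF1 binds was in 0 of the 167 and in 0.466% of all, and the ATF4 element TGATGNAA in 2, or 1.198%, and in 3.45% of all. Among the 8 members with the largest rises at 24 h, Zfp758 and Zfp180 held an antioxidant response element match. Among the 8 with the largest falls, Zfp523 held a match as well. The promoters of Zfp758 and Zfp180 are shown with the match in capitals. They lie at chr17:22361213-22361462 and chr7:24081647-24081896, both on the plus strand. A match is a description of the letters and not of binding.
Zfp758: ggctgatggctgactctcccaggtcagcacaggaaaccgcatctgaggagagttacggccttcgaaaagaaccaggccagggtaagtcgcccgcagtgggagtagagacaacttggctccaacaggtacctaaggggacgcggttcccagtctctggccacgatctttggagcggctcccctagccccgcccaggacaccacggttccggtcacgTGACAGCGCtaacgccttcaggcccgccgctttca
Zfp180: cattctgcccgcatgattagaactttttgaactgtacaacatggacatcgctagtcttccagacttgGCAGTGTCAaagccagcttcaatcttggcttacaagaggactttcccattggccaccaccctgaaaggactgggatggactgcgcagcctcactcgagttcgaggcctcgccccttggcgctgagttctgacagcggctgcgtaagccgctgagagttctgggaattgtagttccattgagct
In Zfp180 the match is on the other strand.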

How the data were processed

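RNA sequencing gave 1 table per time, each with 6 libraries. Per the submitters' processing notes, HISAT2 2.0.5, featureCounts 1.5.0-p3 and DESeq2 were used with the build GRCm39. Their roles and the strand setting are not given in the sources used here. Per the file headers, the authors deposited raw counts per gene, the same counts corrected by size factors (a signal not used here), FPKM, and their own log2 fold changes with p-values.

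Raw counts were tested with edgeR 4.0.16 (TMM scaling, filterByExpr, robust quasi-likelihood F test, two-sided, Benjamini-Hochberg over all genes tested, called at adjusted p under 0.05), each time fitted on its own libraries. The interaction and the vehicle comparison used all 12 libraries. CPM values used TMM library sizes, and the error of a log2 fold change is its standard error. Deposited FPKM served for levels per length and, as log2(FPKM + 0.1), for limma 3.58.1. Other alternatives were DESeq2 1.42.0, other scalings, no filter, a replicate block and leaving out libraries.

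Named members were the 8 largest called rises and falls at 24 h, the 5 largest at 4 h, the 3 largest interaction terms each way, the 5 highest by FPKM, the 3 nearest the count limit and called members of the role lists. The members and all lists were chosen with earlier results of these data known. Fingers and KRAB boxes were searched in translated GRCm38 transcripts, and promoters in RefSeq sequence of GRCm38.p6.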

Additional observations from a re-analysis of the deposited data

Results flagged for a closer look

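The response to MCB-613-10-1 differed between 24 h and 4 h in 106 of the 168 members by the interaction term of edgeR, beside 53.8% of all genes. The largest positive differences, on the log2 scale as 24 h minus 4 h, were 2.62 for Zfp945, 1.91 for Zfp36 and 1.80 for Zfp758. The largest negative ones were -1.48 for Zfp651, -1.41 for Zfp523 and -1.18 for Zfp521. Zfp945, Zfp758, Zfp651 and Zfp523 averaged below 300 counts in some group, so their differences are partly set by the choice of members. The responses at 24 h and 4 h behind these differences were 3.0 and 0.38 for Zfp945, 2.87 and 0.97 for Zfp36, 1.71 and -0.08 for Zfp758, -1.87 and -0.38 for Zfp651, -1.19 and 0.22 for Zfp523, and -1.25 and -0.06 for Zfp521.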

How the results depend on the processing

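The number of members called at 4 h was the value most affected by the processing. Members called higher, 9 in the reported test, numbered 14 without the filter, 15 with DESeq2 and 22 with all 12 libraries in 1 fit, and 5 to 15 when single libraries were left out. Members called lower, 6 in the reported test, numbered 12 without the filter, 3 with limma on FPKM, 15 with all 12 libraries, and 3 to 9 when single libraries were left out. The share of all genes called moved as well, between 1.41% and 6.48% higher and between 1.41% and 6.97% lower over these settings. Which property of each setting moved these counts was not tested. At 24 h the members called higher numbered 63 to 88 and those called lower 43 to 62 over the alternatives, with library totals at the low end of one and the high end of the other. The interaction calls numbered 97 to 108 and the vehicle time calls 94 to 114. Under library totals Zfp106 and Zfp91 changed sign at 24 h, with log2 changes of -0.036 and -0.049. Calls were lost under at least 1 alternative in 11 of 54 named results at 24 h, 7 of 42 interaction results and 6 of 14 results at 4 h.

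Whether the replicate numbers pair the libraries is not settled, and the reported test did not block on them. Deviations of same-numbered libraries correlated by 0.0878, 0.0832 and 0.109 at 4 h, against -0.108 to 0.0196 between other numbers. At 4 h each library thus correlated best with its own number. At 24 h the same-numbered libraries correlated by 0.0133, 0.0200 and -0.0430, against -0.0799 to 0.0717 between other numbers. With a replicate block, 22 members were called higher and 16 lower at 4 h, 87 and 46 at 24 h, 107 in the interaction and 112 in the vehicle comparison. The median standard error of the members' log2 fold changes was 0.08 at 24 h, against 0.12 at 4 h.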
